A study of Mus musculus with 2 samples.

Results

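Binding of the transcription factor Myb was examined at 9 genes of the JAK/STAT pathway in WT mouse bone marrow. The genes were the kinases Jak1 and Jak2, the transcription factors Stat3, Stat5a and Stat5b, and the feedback inhibitors Socs1, Socs2, Socs3 and Cish. A listed Myb peak was assigned to a gene when its summit, the base with the highest read pileup, lay in the gene body or within 30 kb of it. By this rule 51 of the 25793 listed peaks fell at the 9 genes. They made 58 gene and peak pairs, because 6 peaks at the Stat genes were within reach of several of them.

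Myb was precipitated from lineage-negative (Lin–) bone marrow cells, the fraction left after mature blood cells have been depleted, which holds the hematopoietic stem and progenitor cells. The 2 samples, both of WT genotype in the labels, were a ChIP with a Myb antibody and a ChIP with nonspecific rabbit IgG, with 1 library each. In the study's methods, WT mice carried floxed Ep300 alleles (Ep300 fl/fl) without the Mx1-Cre transgene, on a C57BL/6 background, and were given poly(I:C) as young adults along with the Cre-bearing genotypes. Poly(I:C) is a synthetic double-stranded RNA that induces interferon, which itself signals through JAK kinases. The sources used here do not say separately whether the mice of the Myb ChIP were injected, how long before, or whether cells of several mice were pooled, and the part of such treatment in the peaks was not tested. The IgG library served as the background for peak calling, and its own signal was not analysed here. The study mapped Myb sites in WT cells to find which genes that respond to loss of p300 are bound by Myb. The precipitated cells were not separated further, so peaks of different progenitor types within the Lin– fraction cannot be told apart.

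In JAK/STAT signaling, a cytokine receptor brings together JAK kinases, which phosphorylate the receptor and then STAT proteins. Phosphorylated STAT proteins dimerize, enter the nucleus and bind DNA at the palindrome TTCNNNGAA. Among the genes they switch on are those of the SOCS family, whose proteins block the receptors and kinases and so close a negative feedback loop. In blood progenitors, Jak2 and the Stat5 proteins relay the signals of erythropoietin, thrombopoietin and interleukin-3, Jak1 and Stat3 those of the interleukin-6 and granulocyte colony-stimulating factor receptors, and Cish and Socs2 are classical targets of Stat5. Myb, the factor precipitated here, is required for definitive hematopoiesis and binds a short sequence with the core AAC.

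The peaks that carry the findings are shown with 50 bases on each side of their summits, on the plus strand of mm10 (GRCm38) and in the RefSeq sequence of that build. Capitals mark a Myb consensus (the core AACNG with G or T as its N, preceded by C or T), a STAT palindrome (TTCNNNGAA), a GATA motif (GATAA preceded by A or T) or a RUNX motif (TGNGGT with C or T as its N), each on either strand. None of the printed matches overlapped another. The first set holds the peak with the highest fold enrichment at the Stat genes, Socs1 and Socs3, with the Stat3 promoter peak added because it ranked next among all 51. The highest peaks of Jak1, Jak2 and Cish lay over annotated UTRs and are given by position only.
Stat3 intron 21, chr11:100891592-100891692: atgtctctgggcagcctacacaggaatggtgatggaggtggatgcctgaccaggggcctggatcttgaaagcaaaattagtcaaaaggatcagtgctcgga
Stat3 promoter, chr11:100939610-100939710: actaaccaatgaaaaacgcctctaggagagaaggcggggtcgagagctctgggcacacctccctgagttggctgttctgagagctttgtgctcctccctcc
Stat5b promoter, chr11:100849744-100849844: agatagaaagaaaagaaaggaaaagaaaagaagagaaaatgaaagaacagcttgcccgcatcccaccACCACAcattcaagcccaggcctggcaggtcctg
Socs1 promoter, chr16:10785712-10785812: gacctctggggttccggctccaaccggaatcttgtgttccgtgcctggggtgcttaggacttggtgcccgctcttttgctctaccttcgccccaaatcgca
Socs3 upstream, chr11:117974966-117975066: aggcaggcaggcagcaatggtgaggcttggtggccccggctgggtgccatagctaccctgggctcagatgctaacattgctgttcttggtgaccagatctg
In the second set the summit window held a Myb consensus, as CAGTTG read from the other strand in the second of the Stat5b peaks.
Stat5b intron 1, first, chr11:100826760-100826860: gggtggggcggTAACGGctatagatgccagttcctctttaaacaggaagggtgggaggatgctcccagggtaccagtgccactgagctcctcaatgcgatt
Stat5b intron 1, second, chr11:100840808-100840908: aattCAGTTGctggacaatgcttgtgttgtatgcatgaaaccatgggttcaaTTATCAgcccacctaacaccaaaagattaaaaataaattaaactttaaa
Stat3 intron 1, first, chr11:100932265-100932365: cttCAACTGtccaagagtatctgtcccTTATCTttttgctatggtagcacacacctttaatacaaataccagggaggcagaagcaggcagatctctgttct
Stat3 intron 1, second, chr11:100937411-100937511: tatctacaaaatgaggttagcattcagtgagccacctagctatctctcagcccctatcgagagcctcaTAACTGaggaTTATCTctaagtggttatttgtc
Cish upstream, first, chr9:107283038-107283138: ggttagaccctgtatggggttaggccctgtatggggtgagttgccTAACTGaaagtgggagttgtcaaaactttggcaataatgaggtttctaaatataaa
Cish upstream, second, chr9:107289952-107290052: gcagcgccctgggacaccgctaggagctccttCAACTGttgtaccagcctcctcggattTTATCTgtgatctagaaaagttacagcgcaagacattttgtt
The last set comprises all 3 windows with a STAT palindrome, and the first of them held a Myb consensus as well.
Jak2 promoter, chr19:29251097-29251197: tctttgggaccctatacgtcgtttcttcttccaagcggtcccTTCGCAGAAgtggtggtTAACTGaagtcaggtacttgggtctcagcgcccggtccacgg
Jak2 upstream, chr19:29228981-29229081: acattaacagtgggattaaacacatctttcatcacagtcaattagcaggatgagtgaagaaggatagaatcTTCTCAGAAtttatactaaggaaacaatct
Socs3 upstream with palindrome, chr11:117976179-117976279: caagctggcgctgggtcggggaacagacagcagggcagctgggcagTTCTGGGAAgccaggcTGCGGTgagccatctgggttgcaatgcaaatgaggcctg

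Myb peaks were listed at 8 of the 9 genes, all but Socs2. Among the 21938 protein-coding genes of GENCODE vM21, 62.8% had a peak by the same rule. A peak within 3 kb of one of the gene's own start sites was found for 7 of the 9, against 39.9% of coding genes: both kinases, all 3 Stat genes, Socs1 and Cish. For 8 of the 9, at least 1 peak had the gene as its nearest coding gene, against 45.6% of coding genes. A peak whose −log10 q-value was 5 or more was present at 7 of the 9, all but Jak1 and Socs2, against 47.2% of coding genes. With 9 genes and 1 library these shares are descriptions, and no test was made between the genes and the genome.

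At 8 of the 9 genes peaks were more numerous than at the median coding gene, which had 1 peak. Stat5b had 11, Stat3 and Socs3 had 9 each, Jak2 had 8, Cish 7, Stat5a 6, Jak1 5 and Socs1 3. No peak was listed at 37.2% of coding genes and 1 peak at 15.8%. At least 11 peaks were found at 2.59% of coding genes, at least 9 at 4.89% and at least 8 at 6.70%. At least 7 were found at 9.42%, at least 6 at 13.5%, at least 5 at 18.6% and at least 3 at 34.9%. Gene length enters these counts, because a long gene has a larger search region. Per 100 kb of search region Socs3, a gene of 3.97 kb, had the most peaks of the 9, with 14.1, and was denser than 98.2% of coding genes. Cish followed with 10.5 per 100 kb, then Stat5b with 8.46, Stat3 with 7.86, Stat5a with 6.99, Jak2 with 6.60, Socs1 with 4.74 and Jak1 with 2.89. The median coding gene had 1.38 per 100 kb. Socs1 was denser than 80.3% of coding genes and Jak1 than 66.7%.

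**Figure D1:**
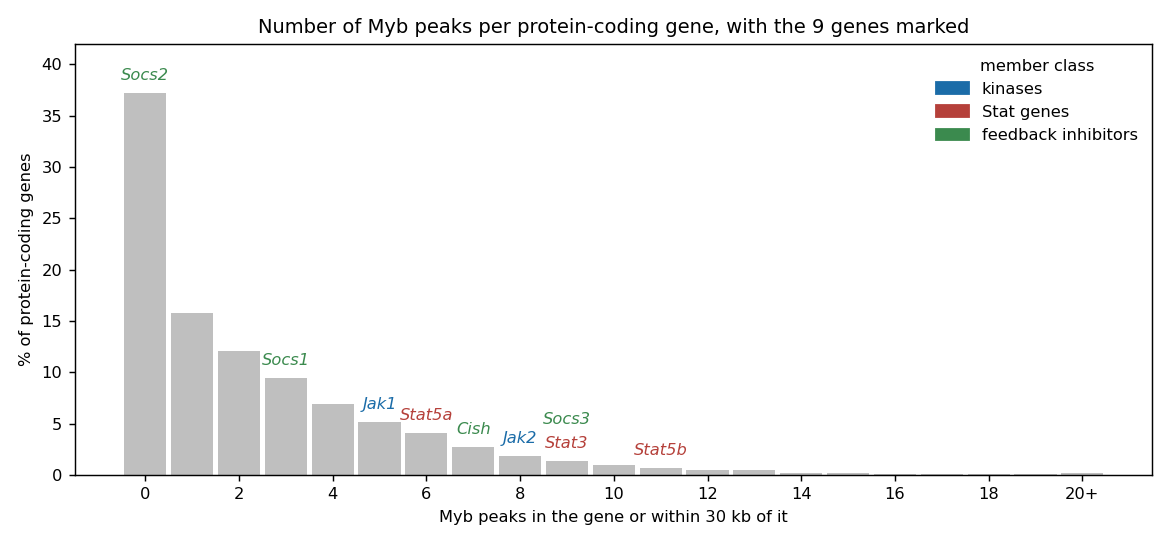
Percentage of protein-coding genes (vertical axis) with each number of Myb peaks in the gene or within 30 kb (horizontal axis, 20 or more pooled). The 9 genes are written above the bar of their own count and colored by class: Socs2 stands at 0 with 37.2% of coding genes, and Stat5b at 11.

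When genes were grouped by role, the Stat genes held 19 peaks in 219 kb, or 8.68 per 100 kb. The feedback inhibitors held 19 peaks in 286 kb, or 6.65 per 100 kb, and the kinases 13 peaks in 294 kb, or 4.42 per 100 kb. When only peaks nearest to the gene itself were counted, the order of the last 2 changed. Per 100 kb there were then 8.68 at the Stat genes, 4.08 at the kinases and 3.15 at the inhibitors. Their order also changed with a search window of 100 kb, to 4.35 at the kinases and 3.78 at the inhibitors. With all peaks within reach, single inhibitors ran from 0 per 100 kb at Socs2, in 91.8 kb searched, to 14.1 at Socs3. Jak1 had 2.89 and Jak2 6.60, and the Stat genes 6.99 to 8.46. The class values thus rest on few genes of unlike density. Socs2, with 0, and Socs1, with 4.74 per 100 kb, both lay below the value of the inhibitors as a class. A −log10 q-value of 5 or more was reached by 10 of 19 peaks at the Stat genes (52.6%, exact 95% interval 28.9 to 75.6%), 8 of 19 at the inhibitors (42.1%, 20.3 to 66.5%) and 2 of 13 at the kinases (15.4%, 1.92 to 45.4%), against 43.1% of all listed peaks. The intervals of the 3 classes overlapped. Median fold enrichment was 4.97 at the Stat genes (95% interval 3.50 to 6.66). It was 4.05 at the inhibitors (3.43 to 4.91) and 3.99 at the kinases (3.78 to 4.95). These intervals overlapped, and no test between the medians was made, so no order is claimed. Over all 51 peaks the median was 4.44 (3.99 to 4.91), and over all listed peaks 4.51.

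The reads behind each summit were recovered from its fold enrichment and p-value and numbered 10 to 63 over the 51 peaks, with a median of 17. Intervals on reads are exact Poisson 95% intervals that cover counting error alone, as there was no replicate library. The local background was 4 or more control reads at 8 of the 51 peaks (15.7%, and 12.4% of all listed peaks), which lowers the fold enrichment for a given number of reads.

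Stat5b, Stat5a and Stat3 lie side by side on chromosome 11, in 159 kb between positions 100780731 and 100939540. Stat5b and Stat3 are on the minus strand and Stat5a on the plus strand. The start sites of Stat5b and Stat5a face each other across a gap of 8626 bp, and the 3′ ends of Stat5a and Stat3 overlap by 72 bp. The 19 peaks were unevenly shared along this stretch: 10 had Stat5b as nearest coding gene, 8 had Stat3 and 1 had Stat5a.

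The peak with the highest fold enrichment at any of the 9 genes lay inside Stat3, at chr11:100890653-100892676. It had a fold enrichment of 17.0, a −log10 q-value of 44.7 and 63 reads (48.4 to 80.6) over a local background of 1.91 control reads. Its fold enrichment exceeded that of 99.6% of all listed peaks, and 1.13% of coding genes had a peak as high within reach. The summit was in intron 21 of the Stat3 coding transcript, 47.9 kb from its start and 6544 bp from its 3′ end. It was also 6473 bp beyond the 3′ end of Stat5a, within reach of that gene. An annotated Stat3 transcript with a retained intron begins 1330 bp away, which places the peak among promoter peaks under the 3 kb rule, although the nearest start of a coding transcript is 31158 bp away. The printed bases around this summit held no Myb, STAT, GATA or RUNX motif. The whole peak, 2024 bp wide, held 4 Myb consensus matches, the nearest 113 bp from the summit. A count for other peaks of this width is not given here.

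Stat3 encodes the STAT protein that acts downstream of interleukin-6 and granulocyte colony-stimulating factor. Its second-highest peak, at chr11:100939196-100940336, was centered 120 bp upstream of the start site and had a fold enrichment of 9.64, a −log10 q-value of 21.7 and 43 reads (31.1 to 57.9). The read intervals of the promoter and intron 21 peaks overlapped. A further peak at chr11:100951832-100952437, 12.7 kb upstream, had a fold enrichment of 6.66, a −log10 q-value of 11.0 and 31 reads (21.1 to 44.0). Intron 1 of Stat3 held 5 lower peaks between 1.24 and 9.33 kb from the start, with fold enrichments of 2.95 to 4.69. One of these had 26 reads (17.0 to 38.1) and a fold enrichment of only 3.50, since its local background was 5.0 control reads. The lowest, at chr11:100934489-100934958, had 10 reads (4.80 to 18.4) and a q-value above 0.05.

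Stat5b, a transducer of erythropoietin, thrombopoietin and interleukin-3 signals, carried 10 peaks within the gene, of which 8 were in intron 1. Its highest peak, at chr11:100848707-100850521, had a fold enrichment of 8.03, a −log10 q-value of 13.8 and 30 reads (20.2 to 42.8), with its summit 930 bp downstream of the start site of the coding transcript and 744 bp from another start site. The peak at chr11:100826437-100827096 had a fold enrichment of 6.75, a −log10 q-value of 10.5 and 28 reads (18.6 to 40.5), and that at chr11:100840685-100841367 had 6.41, 8.20 and 21 reads (13 to 32.1). These are the 2 Stat5b peaks with a Myb consensus near the summit, TAACGG at 34 bp and CAGTTG at 41 bp. A peak at chr11:100822207-100823058 lay 129 bp from an internal start site of a shorter Stat5b transcript, with a fold enrichment of 5.01 and 23 reads (14.6 to 34.5). The read intervals of all 4 of these Stat5b peaks overlapped.

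Stat5a, the close paralog of Stat5b, had 1 peak nearest to itself, at chr11:100860295-100861554. Its summit was in intron 1, 431 bp from a Stat5a start site, with a fold enrichment of 4.91, a −log10 q-value of 5.42 and 20 reads (12.2 to 30.9). The other 5 peaks within reach of Stat5a were nearest to Stat5b or Stat3, among them the intron 21 peak of Stat3, the promoter peak of Stat5b and the Stat5b intron peak of fold enrichment 6.41, which were the highest 3 within its reach. Peak lists alone do not assign a peak to one of these genes.

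**Figure D2:**
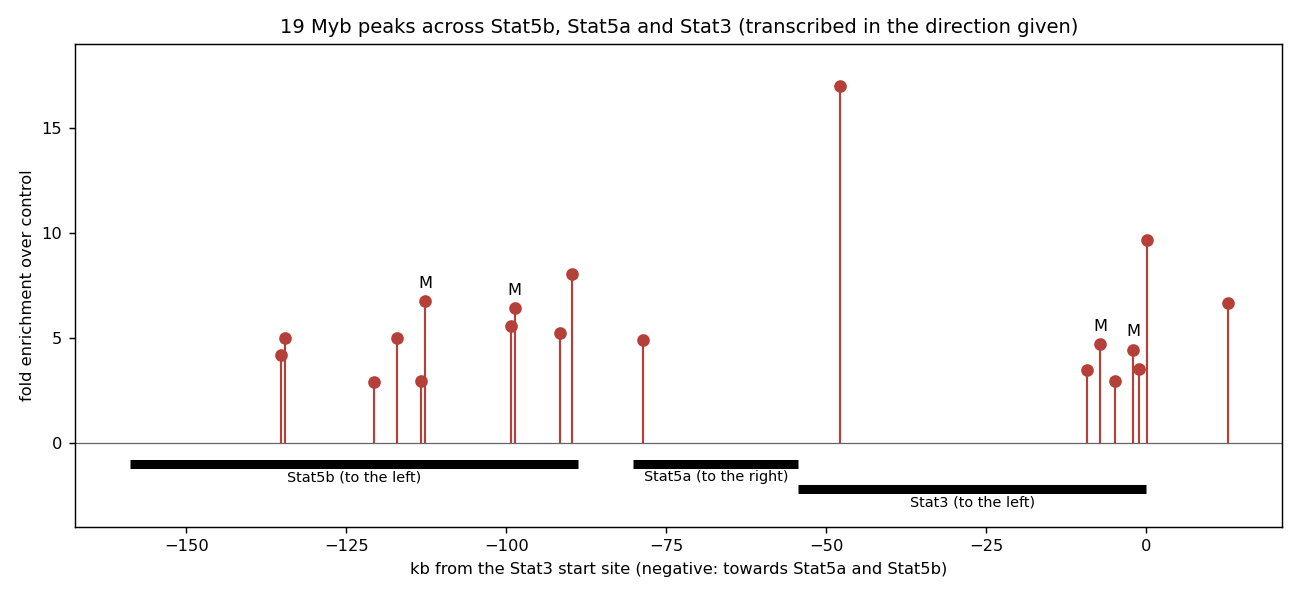
Fold enrichment over control (vertical axis) of the 19 Myb peaks along Stat5b, Stat5a and Stat3, by distance in kb from the Stat3 start site. Black bars are gene bodies and M marks a Myb consensus within 50 bp of the summit; the peak in intron 21 of Stat3 stands at 17.0, and the Stat3 and Stat5b promoter peaks at 9.64 and 8.03.

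Among the kinases, Jak2, the kinase of the erythropoietin and thrombopoietin receptors, had its highest peak at its own start. This peak, at chr19:29252070-29254817, had a fold enrichment of 7.22, a −log10 q-value of 8.98 and 22 reads (13.8 to 33.3), with its summit in intron 1, 84 bp from a Jak2 start site and 697 bp from the first one. A Myb consensus, CAGTTA on the plus strand, lay 29 bp from the summit. The next peak, at chr19:29226568-29228537, had a fold enrichment of 5.40, a −log10 q-value of 5.30 and 16 reads (9.15 to 26.0) at 23.4 kb upstream of the start. Next came chr19:29249837-29250376, with a fold enrichment of 4.44, a −log10 q-value of 3.91 and 16 reads (9.15 to 26.0) at 1547 bp upstream. The read intervals of these 3 peaks overlapped.

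The last of the 3 peaks within 3 kb of the Jak2 start, at chr19:29250985-29251485, was 681 bp upstream. It had a fold enrichment of 3.92 and 14 reads (7.65 to 23.5), with the STAT palindrome TTCGCAGAA over the summit and the Myb consensus TAACTG at 9 bp from it. It was the only one of the 51 summit windows to hold both, and the share of all listed summits with both is not given here. Its fold enrichment exceeded that of only 30.9% of all listed peaks. The other Jak2 peak with a palindrome, TTCTCAGAA at 21 bp, lay 22.8 kb upstream at chr19:29228784-29229155 and had a fold enrichment of 3.84 and 11 reads (5.49 to 19.7). Of the remaining 3, the one 71.9 kb downstream of the start was nearest to Insl6.

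Jak1, which encodes the kinase shared by interferon and interleukin-6 type receptors, had 5 peaks with fold enrichments of 3.69 to 4.95, a −log10 q-value below 5 at each, and no Myb or STAT motif near any summit. The highest, at chr4:101264816-101265442, had 18 reads (10.7 to 28.4), a −log10 q-value of 4.67 and a summit 186 bp from a Jak1 start site. The peaks next in fold enrichment were at chr4:101246433-101246741, 18.7 kb into intron 1 (4.62, 15 reads, 8.40 to 24.7), and at chr4:101263610-101264212 (4.44, 16 reads, 9.15 to 26.0). Intron 1 held 4 of the 5 peaks, 3 of them within 1.27 kb of the start. The fifth lay 27.7 kb upstream. All 5 read intervals overlapped.

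Among the feedback inhibitors, Socs1, an inhibitor of JAK kinases in interferon and cytokine signaling, had its highest peak 226 bp upstream of its start site, at chr16:10785664-10786090. The fold enrichment was 6.06, the −log10 q-value 8.71 and the read number 25 (16.2 to 36.9). A second peak, at chr16:10784262-10785236, had its summit in exon 2, with a fold enrichment of 4.24 and 14 reads (7.65 to 23.5). The remaining one, at chr16:10806140-10806494, was 489 bp from the start of the protamine gene Prm1, with a fold enrichment of 4.0 and 12 reads (6.20 to 21). The intervals of all 3 overlapped. None of the 3 summit windows held a Myb or STAT motif. Farther out, each of the 3 peaks held 1 Myb consensus, at 74 to 295 bp from its summit. How often other peaks of these widths hold a match is not given here.

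Cish, which encodes the cytokine-inducible SH2 protein, had a peak at its own start at chr9:107295898-107296283. The summit was 13 bp from the GENCODE start, with a fold enrichment of 4.66, a −log10 q-value of 5.03 and 20 reads (12.2 to 30.9). Of the 7 peaks within reach, 5 were nearest to the adjacent kinase gene Mapkapk3, including the highest, at chr9:107280026-107281075, which was 110 bp from a Mapkapk3 start and had a fold enrichment of 8.40, a −log10 q-value of 13.8 and 29 reads (19.4 to 41.6). The second-highest, at chr9:107289907-107290151, was 125 bp from another Mapkapk3 start and held CAACTG at 13 bp from its summit, with a fold enrichment of 5.20 and 21 reads (13 to 32.1). A peak in a Mapkapk3 intron, at chr9:107282796-107283774, held TAACTG directly at its summit, with a fold enrichment of 4.51 and 28 reads (18.6 to 40.5). The intervals of these 4 peaks overlapped.

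RefSeq places the start of Cish 633 bp downstream of the first GENCODE start. At the RefSeq start lies a pair of STAT palindromes, TTCCTGGAA and TTCTTGGAA, separated by 2 bp and shown here as the target site alone.
Cish start site, chr9:107296655-107296682: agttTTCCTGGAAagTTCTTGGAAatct
The first of these palindromes was 376 bp beyond the end of the Cish peak and 620 bp from its summit, so that it lay outside the listed Myb peak. Of 32851 RefSeq promoter windows, which run from 250 bp before to 50 bp after the start, 8.30% held at least 1 palindrome and 0.457% at least 2. The window of Socs3 held 1, and those of Jak1, Jak2, Stat3, Stat5a, Stat5b and Socs1 held none. A Myb summit fell inside the window of Socs1 and of Stat3 and in none of the others. Socs2 had no entry in the promoter table.

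Socs3, the inhibitor that binds the receptors of interleukin-6 and granulocyte colony-stimulating factor, differed in layout from the other genes with peaks: none of its 9 peaks was inside the gene or within 3 kb of its start. The nearest, which was also the highest, lay 4969 bp upstream of the first start at chr11:117974311-117975171, with a fold enrichment of 5.07, a −log10 q-value of 5.74 and 22 reads (13.8 to 33.3). The next were at chr11:117979527-117979898 (4.91, −log10 q-value 5.42, 20 reads, 12.2 to 30.9) and chr11:117952139-117952382 (4.44, −log10 q-value 3.91, 16 reads, 9.15 to 26.0). On the upstream side there were 6 peaks and on the downstream side 3. Of the 9 peaks, 4 were nearest to the neighboring gene Pgs1, among them the lowest of all 51, which had a fold enrichment of 2.34 and a q-value above 0.05 although it had 20 reads (12.2 to 30.9), against a background of 6.0 control reads. The peak at chr11:117976056-117976515, 6182 bp upstream, had the palindrome TTCTGGGAA over its summit and the RUNX motif TGCGGT at 12 bp, with a fold enrichment of 3.89 and 24 reads (15.4 to 35.7).

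Socs2, an inhibitor of growth hormone signaling, had no listed peak in its 31.8 kb or within 30 kb of it, as for 37.2% of coding genes. The nearest summits were 61.3 kb beyond its 3′ end, in the peak chr10:95323166-95324552 (fold enrichment 7.59, 23 reads, 14.6 to 34.5), and 97.5 kb beyond its 5′ end, in the peak chr10:95514511-95514901 (4.29, 21 reads, 13 to 32.1). The first was 0.048 kb from a start site of Cradd and the second 0.479 kb from one of Ube2n. A site too weak to be listed cannot be told apart from no binding here.

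**Figure D3:**
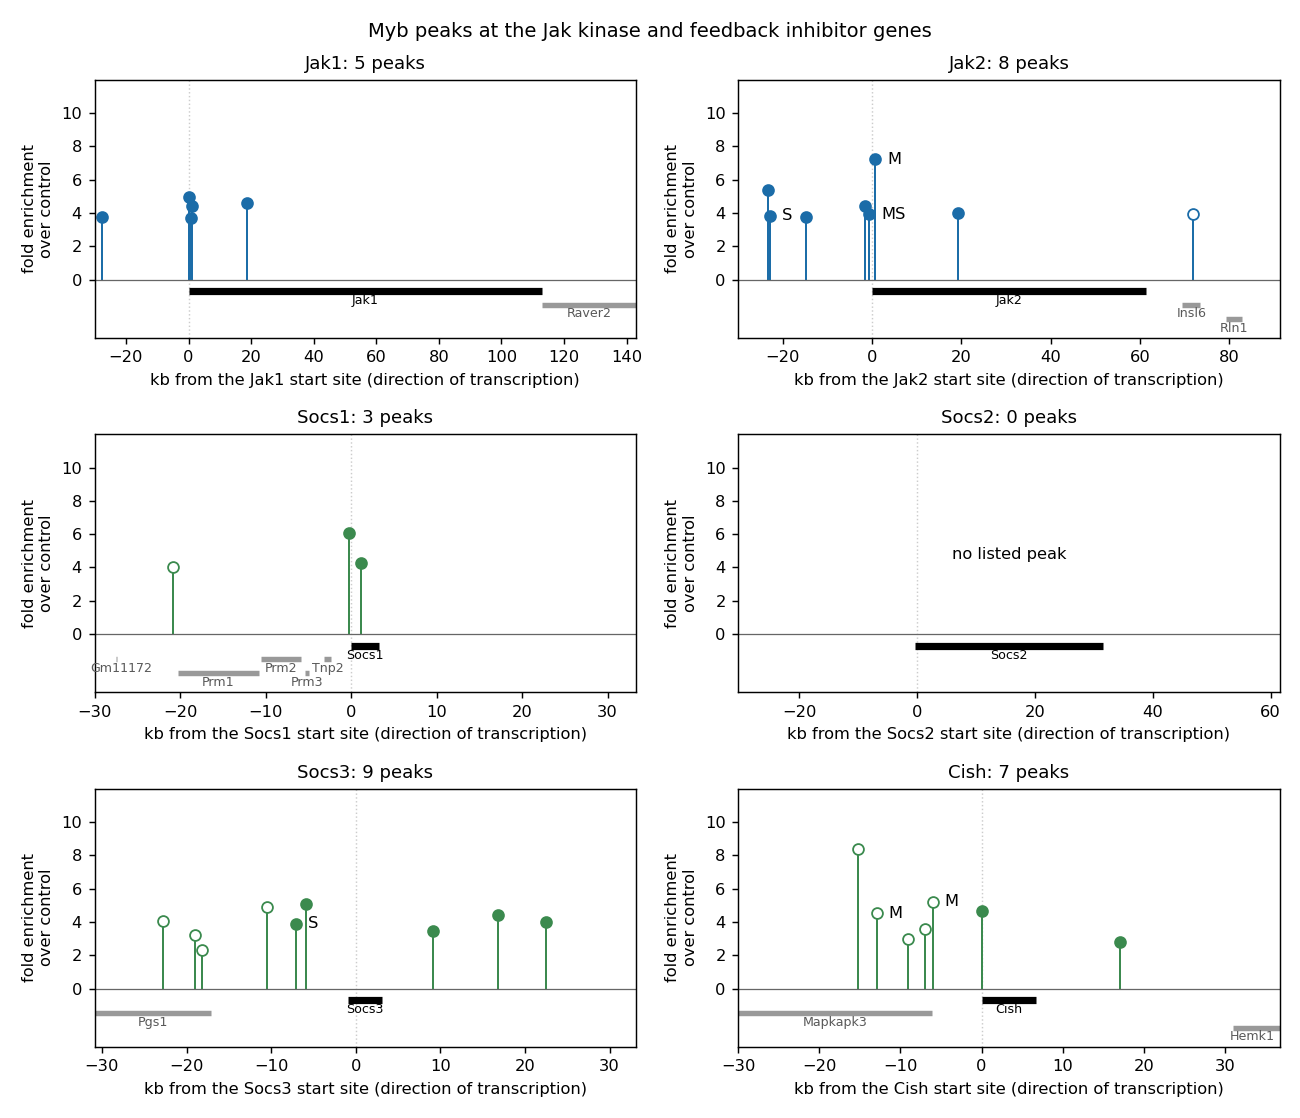
Fold enrichment over control (vertical axis) of the Myb peaks at Jak1, Jak2, Socs1, Socs2, Socs3 and Cish, by distance in kb from each gene's start site in the direction of transcription, over the gene and 30 kb on either side. Black bars are the genes, gray bars other coding genes, filled points peaks nearest to the gene itself and open points peaks nearest to another gene. M marks a Myb consensus and S a STAT palindrome within 50 bp of the summit; Jak1, Jak2, Socs1 and Cish have a peak at the start site, Socs3 has peaks on both sides, and Socs2 has none.

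**Figure D4:**
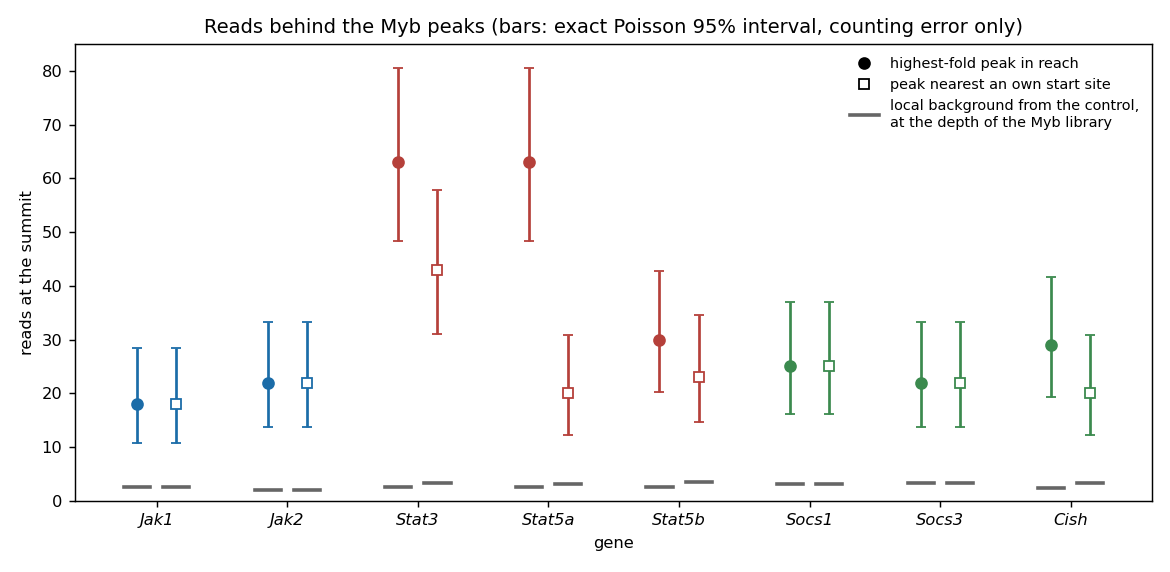
Reads at the summit (vertical axis) of the highest-fold peak within reach of each gene (circles) and of the peak nearest one of its own start sites (squares), with exact Poisson 95% intervals, and the local background from the control at the depth of the Myb library (gray bars). Colors give the class as in the plot of peaks per gene; the highest peak has 63 reads for Stat3 and, being the same peak, for Stat5a, and 18 to 30 reads for the others.

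Of the 51 peaks, 26 were at a promoter, defined as a summit within 3 kb of any annotated start site (51.0%, exact 95% interval 36.6 to 65.2%), against 57.6% of all listed peaks. The share was 42.1% at the Stat genes (8 of 19), 53.8% at the kinases (7 of 13) and 57.9% at the inhibitors (11 of 19). Only 17 of the 26 were within 3 kb of a start of one of the 9 genes. At the inhibitors these were 2 peaks at Socs1 and 1 at Cish, and the other promoter peaks were nearest to Mapkapk3, Pgs1 or Prm1. At the kinases they were 3 each at Jak1 and Jak2, with 1 further promoter peak nearest to Insl6. Peaks at promoters had a median fold enrichment of 4.47 (95% interval 3.92 to 5.20) and those elsewhere 4.05 (3.78 to 4.91). These intervals overlapped, and no test between the 2 medians was made, so no order is claimed. Over all listed peaks the medians were 4.54 at promoters and 4.48 elsewhere.

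A Myb consensus lay within 50 bp of 8 of the 51 summits (15.7%, 7.02 to 28.6%), against 16.7% of all listed summits. It was found at 4 summits of the Stat genes, 2 of the kinases and 2 of the inhibitors. A STAT palindrome was present at 3 summits (5.88%, 1.23 to 16.2%), against 2.95% of all listed summits, with 2 at Jak2, 1 at Socs3 and 0 of 19 at the Stat genes (exact upper limit 17.6%). GATA motifs were found at 8 summits (15.7%), against 13.8% of all, and RUNX motifs at 7 (13.7%), against 12.2% of all. The ETS motif CCGGAAG was found at 0 of 51 (exact upper limit 6.98%), against 1.85% of all. Each interval included the share of all listed peaks, so no motif was shown to differ in frequency at these genes.

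Another 24 genes of the pathway were counted for comparison: Jak3, Tyk2, Stat2, Stat4, Stat6, Socs4 to Socs7, the Pias genes, the phosphatases Ptpn1, Ptpn2, Ptpn6 and Ptpn11, the Sh2b adaptors, Cbl, Cblb, Stam and Stam2. All 24 had a Myb peak in the gene or within 30 kb, against 62.8% of coding genes. A peak within 3 kb of an own start site was found for 21, all but Jak3, Stat4 and Socs5, against 39.9% of coding genes. The 24 genes held 118 peaks, with 1 at Socs6 to 13 at Pias4 and a median of 4.0 per gene. The highest fold enrichments were 13.9 at Ptpn11, the phosphatase SHP2 (89 reads, 71.5 to 110), 13.8 at Ptpn2 (48 reads, 35.4 to 63.6) and 10.4 at Pias1 (32 reads, 21.9 to 45.2). The Ptpn11 peak, at chr5:121215701-121217239, was 3914 bp from a start of its nearest coding gene Hectd4, and the Ptpn2 peak was 76 bp from a start of Cep76. The Pias1 peak was 10102 bp from a start of Pias1 itself. Median fold enrichment at these genes was 4.48, against 4.44 at the 9 genes, and 4.14 peaks were found per 100 kb of search region, against 6.38.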

How the data were processed

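Lin– bone marrow cells of WT mice were used for ChIP-Seq with a Myb antibody or rabbit IgG, with 1 library each, and samples were grouped by their titles. Adapters were inserted by transposase on the beads. The authors used Cutadapt (1.15) for adapter trimming, BWA (0.7.13) for alignment to mm10, Picard for duplicate removal and MACS2 (2.1.1.20160309) for narrow peaks against IgG, with peaks kept by the overlap of calls on pseudo-replicates. The methods state a q-value threshold, and some deposited peaks exceed it. The deposited fold enrichment is a ratio of Myb pileup to local background computed by the authors, with 1 added to each term. The file also gives −log10 of each p-value and q-value, as deposited. In each of the 25793 rows the deposited score repeats the −log10 p-value, multiplied by 10 without decimals. A depth per library is not given in the peak list.

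Coordinates are 1-based. Genes and start sites were taken from GENCODE vM21, sequences from RefSeq GRCm38.p6. Fold enrichment and p-value together were matched to whole reads at the summit, with MACS2's own definitions and 1 scale of 0.769 for the Myb pileup. All rows (100%) matched within 0.002 on the −log10 scale, and 1.14% allowed more than 1 read number. Local background is given in control reads. Read recovery and motif search were tested on simulated data. Shares carry exact (Clopper-Pearson) and reads exact Poisson 95% intervals, medians an interval from order statistics. All cover counting error only, because there was 1 library of each kind. Neighboring peaks are not independent, nor would be any PCR copies left after duplicate removal. No p-value was computed, as there was no replicate.

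The 9 genes, the 24 comparison genes, the motifs and the alternatives were chosen with earlier results of these data known; the GATA, RUNX and ETS motifs and the restriction to a q-value of at most 0.05 were added after seeing the data. All peaks of the 9 genes were counted. Another gene planned for the comparison is not reported here. Those described singly are the 3 with the highest fold enrichment at each gene, those nearest the start sites and, chosen after their values were seen, peaks with motifs or high background. Alternatives were a minimum −log10 q-value of 2 or 5, search windows of 10 and 100 kb, any overlapping base, the nearest coding gene alone, other promoter definitions, motif windows of 25 and 100 bp, and other motif spellings. Python 3.11.15, pandas 2.3.3, numpy 2.4.6, scipy 1.17.1 and matplotlib 3.10.9 were used.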

Additional observations from a re-analysis of the deposited data

How the results depend on the processing

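Of 70 values recomputed under 15 alternative settings, 58 stayed within 1.5 times the reported count or within its counting interval, and 12 did not. Under a minimum −log10 q-value of 5, the 9 genes kept 20 peaks. Per 100 kb there were 0.68 at the kinases, 4.57 at the Stat genes and 2.80 at the inhibitors. Their median fold enrichment was 5.47. A STAT palindrome was at 0% of these 20 summits, against 2.9% of all listed summits at the same minimum. A search window of 100 kb gave 84 peaks. Per 100 kb there were 7.52 at the Stat genes, 4.35 at the kinases and 3.78 at the inhibitors. With peaks counted only where the nearest coding start belonged to the gene, the inhibitors had 3.15 per 100 kb, below the kinases at 4.08. A promoter window of 1 kb held 29.4% of the peaks, against 41.6% of all listed peaks. The looser Myb core AACNG was found at 68.6% of summits, against 54.3% of all, and the core preceded by C or T at 35.3%, against 29.7%. No interval is given for these motif shares, and a difference from all listed summits was not tested. Each of these settings changes the peaks, windows or letters counted, and why the values moved was not tested. No paired analysis was possible because there was 1 library of each kind. Reads at the summit were few, 17 at the median peak, so the order of peaks within a gene was mostly unresolved.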
